A study of Mus musculus with 6 samples.

Results

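Distal convoluted tubule (DCT) cells were taken from whole-kidney cell suspensions (3 sham and 3 DOCA-salt mice) as the barcodes that held the transcript of the thiazide-sensitive sodium chloride cotransporter NCC, Slc12a3. A barcode is the tag of 1 droplet, and a UMI (unique molecular identifier) is 1 counted transcript. A DCT cell had at least 1000 UMIs, at most 50% mitochondrial UMIs, at least 4 UMIs of Slc12a3, at most 1 UMI of Slc12a1, at most 0.2% of its UMIs in Lrp2, Slc34a1, Slc5a12 and Slc22a6 together, and 0 UMIs of Ptprc, Pecam1 and Col1a1. The rule gave 1229 DCT cells among the 50910 barcodes that passed its UMI and mitochondrial limits, out of 76774 deposited. Of these cells 139, 116 and 250 came from sham mice 1, 2 and 3, and 236, 267 and 221 from DOCA-salt mice 1, 2 and 3. At least 1 UMI of Pvalb, the gene for the calcium-binding protein parvalbumin, was held by 598 cells (Pvalb-positive), and 631 cells held none (Pvalb-negative). The mice were male C57BL/6 aged 8 to 10 weeks. In DOCA-salt mice the left kidney had been taken out, and 1 week later a 50 mg pellet of the mineralocorticoid DOCA was placed under the skin and 1% NaCl was given to drink for 21 days. Sham mice underwent a sham operation, drank normal water and had no pellet, so that kidney loss, DOCA and salt cannot be told apart. Each mouse gave 1 library of dissociated cells, made with the 10x Genomics 3′ method, and the labels give the tissue as kidney only.

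The DCT is a short stretch of the nephron after the thick ascending limb. It takes up sodium and chloride through NCC on its luminal side, and the sodium pump and basolateral chloride channels with their subunit barttin carry them out on the blood side. Kinases of the WNK family act through SPAK (Stk39) and OSR1 (Oxsr1) to phosphorylate and switch on NCC, and the ubiquitin ligase built from KLHL3 and CUL3 removes the WNK kinases. Low potassium turns this pathway on through the basolateral channel Kir4.1/Kir5.1 (Kcnj10 and Kcnj16). The same cells take up magnesium through TRPM6, whose activity epidermal growth factor (Egf) raises. The upstream DCT1 is rich in parvalbumin, whereas the downstream DCT2 shares calcium entry through TRPV5, calbindin and the epithelial sodium channel with the connecting tubule.

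The marker genes that the rule did not use were present. At least 1 UMI of Trpm6 was seen in 80.0% of sham and 83.3% of DOCA-salt DCT cells (mean of 3 mice each), against 2.34% and 3.87% of thick ascending limb cells of the same mice, chosen by the mirrored rule on Slc12a1. With every cell thinned to 1000 UMIs, the Trpm6 share of DCT cells was 43.1% and 39.1%. Summed Trpm6 came to 588 to 798 CPM (UMIs per 1000000 UMIs of the summed cells, mitochondrial UMIs included) in sham and 465 to 612 CPM in DOCA-salt DCT cells, against a mean of 10.1 CPM in all other barcodes. Most cells lay well inside the Slc12a3 limit, with 1193 at 6 or more UMIs and 36 at 4 or 5. Of the cells at 4 or 5 UMIs, 41.7% held Pvalb and 30.6% Trpm6, and of the 105 barcodes just outside, at 2 or 3 UMIs, 9.52% and 30.5%. The 6 libraries shared 0 barcode sequences among DCT cells and 328 among the 50910 kept barcodes.

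Depth differed between the groups, though the median of sham mouse 1 lay above that of DOCA-salt mouse 3. The median DCT cell held 4787.5 to 7993 UMIs in a sham mouse and 7828 to 10774 in a DOCA-salt mouse, and its median mitochondrial share was 34.2 to 36.8% against 27.7 to 30.4%, without overlap. In thick ascending limb cells the mitochondrial share was 32.7 to 35.2% and 33.2 to 34.6%. The sums over DCT cells held 846002 to 1427650 UMIs per sham mouse and 1843490 to 3001940 per DOCA-salt mouse, and the part of depth and RNA quality in the differences was not tested. In DOCA-salt mouse 2 the Slc12a1 limit removed 170 of the 537 barcodes with at least 4 Slc12a3 UMIs (31.7%), against 4.20 to 8.42% in the other mice. Nothing in the labels says how the mice were housed or processed together, so p-values measure the spread between these animals.

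DCT cells made up 1.56, 1.61 and 2.88% of the kept barcodes of the sham mice and 2.71, 2.93 and 2.66% of those of the DOCA-salt mice. Sham mouse 3 lay among the DOCA-salt mice, and the means of 2.02 ± 0.746% and 2.77 ± 0.144% (SD, n = 3 mice each) left a difference that did not pass the two-sided exact permutation test (p = 0.3, where 0.1 is the smallest p that 3 mice against 3 can give). The share depends on how many cells of other types were released and on the Slc12a3 limit.

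Summed UMIs of the DCT cells were then compared between DOCA-salt and sham mice, gene by gene, with the quasi-likelihood test of edgeR on 1 sum per mouse. A positive log2 change is higher in DOCA-salt mice, SE is its standard error, and p is adjusted over all genes tested (Benjamini-Hochberg, threshold 0.05). Of 9687 genes tested, 383 were higher (3.95%) and 223 lower (2.3%) in DOCA-salt DCT cells, or 606 in all (6.26%). With libraries scaled by their totals alone the split was 612 to 125 and the median log2 change of all genes was 0.14, against 383 to 223 and -0.01 with TMM scaling, so that log2 changes below are relative to the median gene. CPM values and overlaps below are scaled by totals alone, and their directions can differ from those of the log2 changes. Klhl3 and Wnk1 of the NCC pathway and Egf and Calb1 of magnesium and calcium handling were among the lower genes, and Spp1, Krt8, Lcn2 and Sox9, known from injured tubules, among the higher ones. Without sham mouse 3 the counts were 210 higher and 89 lower, and without sham mouse 2 they were 594 and 449. With a limit of 20% mitochondrial UMIs they were 135 and 98, of 6177 genes tested.

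Slc12a3 chose the cells, so its level is a description. It stood at 6574, 7820.3 and 7425 CPM in the sham mice and 4381, 5237 and 5594 CPM in the DOCA-salt mice, lower in every DOCA-salt mouse than in any sham mouse. Among its regulators the largest difference was in Klhl3, the substrate receptor of the ligase that removes WNK kinases. Klhl3 stood at 816, 695 and 835 CPM in the sham mice and 380.3, 411 and 392 CPM in the DOCA-salt mice, every DOCA-salt mouse below every sham mouse (log2 change -1.14, SE 0.16, adjusted p = 0.000411). Wnk1, which in the DCT is largely read as a short form that lacks the kinase domain, stood at 3050.5, 2934 and 3306 CPM in the sham mice and 2121, 2203 and 2268 CPM in the DOCA-salt mice. It fell by 0.64 on the log2 scale (SE 0.16, adjusted p = 0.0259) without overlap of the groups. Cab39l, which encodes a relative of the SPAK-binding scaffold MO25, stood at 74.2 to 91.9 CPM in sham and 50.4 to 65.6 CPM in DOCA-salt mice (log2 change -0.60, SE 0.17, adjusted p = 0.0462). The calls of Wnk1 and Cab39l were each lost in 12 of 19 alternatives, and that of Klhl3 was lost in 1, with Pvalb-positive cells alone.

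Of the 14 genes on the list of NCC and its regulators, 13 besides Slc12a3 were tested. Of these 0 were higher and 3 lower, where 3.95% and 2.3% of all genes tested were. The median log2 change of the 13 was -0.28, against -0.01 over all genes tested. Apart from Wnk1, the kinase genes Stk39, Wnk4 and Oxsr1 did not pass the test. Stk39 stood at 269 to 357 CPM in sham and 292 to 323 CPM in DOCA-salt mice (log2 change -0.21, SE 0.16, adjusted p = 0.519), and Wnk4 at 269.5 to 390.2 and 250.1 to 357 CPM (log2 change -0.27, SE 0.19, adjusted p = 0.505). Oxsr1 had a log2 change of 0.10 (adjusted p = 0.887), Cul3, the scaffold of the KLHL3 ligase, one of -0.15 (0.683), and Nedd4l, a ligase that acts on NCC and on the epithelial sodium channel, one of -0.17 (0.589). The values for the protein phosphatase inhibitor gene Ppp1r1a were -0.49 (0.121). Levels of RNA carry no measure of how much NCC was phosphorylated.

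**Figure D1:**
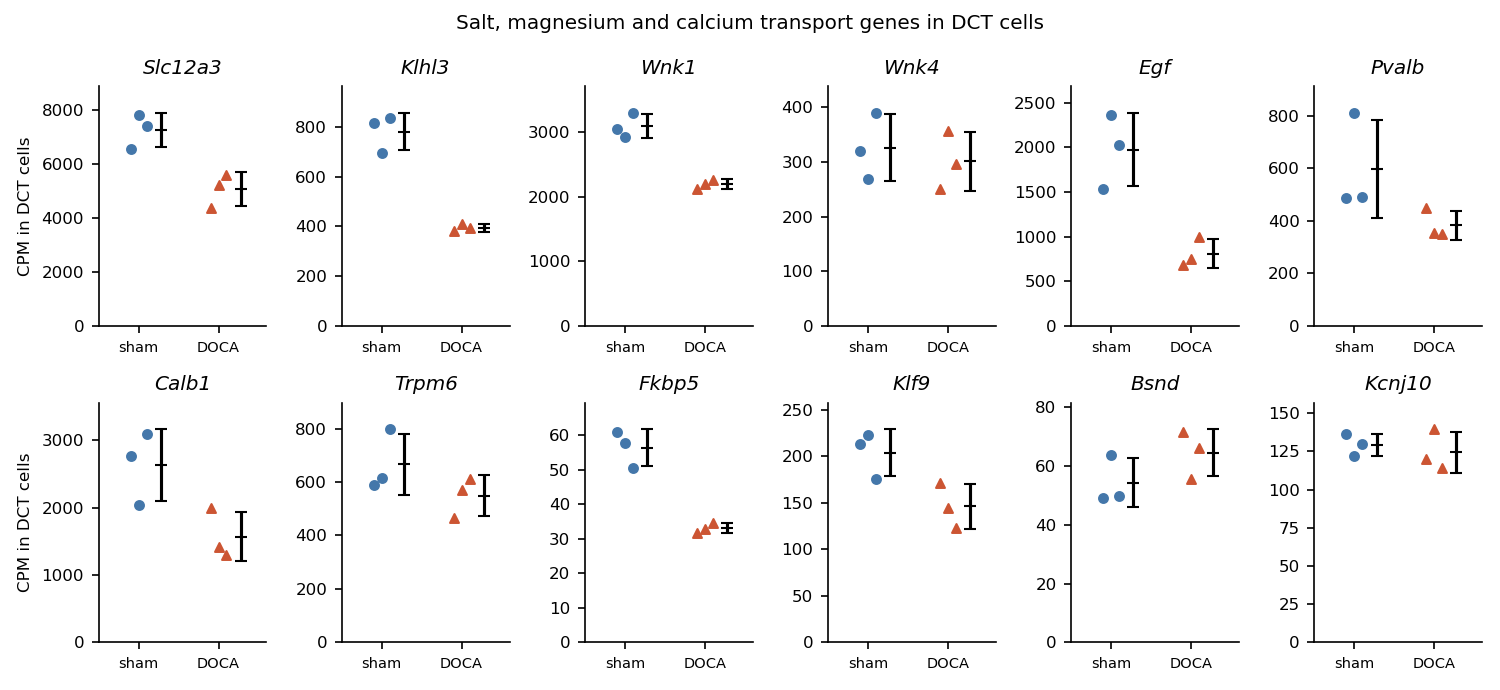
CPM in summed DCT cells on linear axes from 0 for Slc12a3 and 11 other genes of salt, magnesium and calcium handling, 1 point per mouse (circles 3 sham, triangles 3 DOCA-salt), with a bar of the group mean and 1 SD beside the points. Slc12a3 (which chose the cells), Klhl3, Wnk1, Egf and Fkbp5 are lower in every DOCA-salt mouse than in any sham mouse, while the groups overlap for Wnk4, Trpm6, Bsnd and Kcnj10.

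On the blood side, 0 of the 10 genes for chloride, potassium and sodium transport passed the test of edgeR in either direction (median log2 change -0.21), 1 had an unadjusted p under 0.05 (Kcnj16), and 0 passed with DESeq2. Their summed level, scaled by totals, was 15096 to 15687 CPM in sham and 16225 to 17348 CPM in DOCA-salt mice. Bsnd, the barttin gene, stood at 49.1, 63.8 and 49.7 CPM in the sham mice and 71.4, 55.6 and 66.2 CPM in the DOCA-salt mice, with overlap (log2 change 0.11, SE 0.16, adjusted p = 0.789). The potassium channel genes had log2 changes of -0.20 for Kcnj10 (adjusted p = 0.544) and -0.32 for Kcnj16 (0.255).

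Of the 16 tested genes for magnesium and calcium handling, 3 were lower and 0 higher (median -0.26), where 2.3% and 3.95% of all genes tested were. Egf, the growth factor that stimulates TRPM6, showed the largest difference. It stood at 1538, 2358 and 2028 CPM in the sham mice and 683, 748 and 995 CPM in the DOCA-salt mice, and every DOCA-salt mouse was below every sham mouse (log2 change -1.43, SE 0.19, adjusted p = 0.000315). At least 1 Egf UMI was found in 91.8% of sham and 76.4% of DOCA-salt DCT cells, and in 71.3% and 44% after thinning to 1000 UMIs. Calb1, the calcium-binding calbindin, stood at 2762, 2044 and 3087 CPM in the sham mice and 1988, 1420.4 and 1305 CPM in the DOCA-salt mice (log2 change -0.90, SE 0.20, adjusted p = 0.0135). Pvalb itself stood at 487, 812 and 490.3 CPM in the sham mice and 448, 353 and 350.4 CPM in the DOCA-salt mice, with sham mouse 2 far above the rest (log2 change -0.78, SE 0.19, adjusted p = 0.0233). Trpm6 had a log2 change of -0.43 (SE 0.18, adjusted p = 0.197) and its relative Trpm7 one of -0.37 (0.227), neither past the test. The calcium channel Trpv5 (28.4 to 59.1 CPM against 66.8 to 77.0 CPM, log2 change 0.48, SE 0.21, adjusted p = 0.233) and the sodium-calcium exchanger Slc8a1 (-0.12, adjusted p = 0.841) did not pass it either. Of 19 alternatives, the call of Egf was lost in 1, with Pvalb-positive cells alone, and that of Calb1 in 7, the fits without sham mouse 3 and without DOCA-salt mouse 3 among them. The call of Pvalb was lost in 9 of 18, the fits without DOCA-salt mouse 2 and without DOCA-salt mouse 3 among them.

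Of 16 tested genes of mineralocorticoid action 0 were higher and 2 were lower in DOCA-salt DCT cells, where 3.95% and 2.3% of all genes tested were. Their median was -0.38, against -0.01 over all genes. Fkbp5, a co-chaperone that steroid receptors induce, stood at 60.9, 57.9 and 50.4 CPM in the sham mice and 31.7, 33.0 and 34.7 CPM in the DOCA-salt mice (log2 change -0.91, SE 0.17, adjusted p = 0.00401), and Klf9, another steroid receptor target, changed by -0.62 (adjusted p = 0.0316). Sgk1, the kinase that aldosterone induces in the distal nephron, stood at 38.2, 18.9 and 28 CPM in the sham mice and 28.8, 14.3 and 13 CPM in the DOCA-salt mice, with overlap (log2 change -0.75, SE 0.31, adjusted p = 0.199). The receptor gene Nr3c2 had a log2 change of -0.39 (0.268) and the sodium channel subunit Scnn1a one of -0.29 (0.351). Klk1, kallikrein, stood at 2169 to 4979.6 CPM in sham and 1549 to 2888 CPM in DOCA-salt mice and lay just outside the threshold (log2 change -0.99, SE 0.28, adjusted p = 0.0504). The call of Fkbp5 was lost in 3 of 19 alternatives and that of Klf9 in 9. Gm49838 overlaps Fkbp5 on the same strand.

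Of 15 tested transcription factors of the distal tubule 1 was higher and 2 lower, where 3.95% and 2.3% of all genes tested were. Esrrg, an orphan nuclear receptor of energy metabolism, stood at 1635, 1561 and 1905 CPM in the sham mice and 2769, 2841 and 3134 CPM in the DOCA-salt mice (log2 change 0.63, SE 0.17, adjusted p = 0.0345). The homeobox gene Emx1 stood at 222, 289.6 and 197 CPM in the sham mice and 175, 134 and 159 CPM in the DOCA-salt mice (log2 change -0.74, SE 0.16, adjusted p = 0.0111), and Ppargc1a, the coactivator of mitochondrial biogenesis, at 498, 561 and 517 CPM in the sham mice and 358, 371 and 382 CPM in the DOCA-salt mice (log2 change -0.65, SE 0.15, adjusted p = 0.0126). Of 20 nuclear genes for mitochondrial energy metabolism 1 passed, a count near the share of 6.26% over all genes tested. It was the complex I subunit Ndufs1 (log2 change -0.54, SE 0.15, adjusted p = 0.0423). These calls were less firm: of 19 alternatives that of Esrrg was lost in 10, those of Emx1 and Ppargc1a in 8 each and that of Ndufs1 in 14, at least 1 left-out mouse among them for each gene.

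Genes of tubular injury and repair were higher in DOCA-salt DCT cells. Of the 26 on the list 17 were tested, and 11 were higher and 0 lower, where 3.95% and 2.3% of all genes tested were. The median log2 change of the 17 was 1.35, against -0.01 over all genes. The list was chosen with earlier results of these data known. Genes such as Lcn2, with 3 sham UMIs, passed the low-count filter through the DOCA-salt mice alone and could enter only as rises. The count and the median are therefore descriptions. The summed level of the list was 2966 to 3496 CPM in sham and 6964 to 8480 CPM in DOCA-salt mice. Spp1, osteopontin, stood at 1715, 1992 and 1666 CPM in the sham mice and 5740.4, 3479.7 and 6129.7 CPM in the DOCA-salt mice (log2 change 1.36, SE 0.20, adjusted p = 0.000591). In all other barcodes the list summed to 1796 to 2309 CPM in sham and 4861 to 7077 CPM in DOCA-salt mice. The part of free RNA in the DCT level was not tested. The simple-epithelium keratins Krt8 (72.1 to 113 against 272 to 392 CPM, log2 change 1.63, SE 0.20, adjusted p = 0.000141) and Krt18 (37.3 to 52.0 against 94.4 to 175 CPM, log2 change 1.35, adjusted p = 0.00295) both rose. Sox9, a transcription factor of tubule repair, stood at 17.3, 28.4 and 16.8 CPM in the sham mice and 123, 95.3 and 110.1 CPM in the DOCA-salt mice (log2 change 2.29, SE 0.20, adjusted p = 7.45e-06). Without thinning, so with depth not made equal, the share of cells with a Sox9 UMI was 10.0% and 37.7%. Lcn2, the iron-binding injury protein NGAL, stood at 1.82, 0 and 0.700 CPM in the sham mice and 81.3, 194 and 51.0 CPM in the DOCA-salt mice, or 3 UMIs against 908 (133-fold, 95% counting interval 45.3 to 645, adjusted p = 9.82e-05). Lcn2, also without thinning, was found in 0.613% of sham and 9.69% of DOCA-salt DCT cells, beside 2.27% and 5.21% of proximal tubule cells. Median depths of the proximal tubule cells were 7400 to 10690 and 8910 to 11712.5 UMIs. In Aqp2 cells, the principal-type cells downstream, the shares were 37.4% and 77.1% (median depths 9046 to 11213 and 11349.5 to 17103 UMIs).

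Of the ligand genes on this list, Tgfb2, Pdgfb and Cxcl16 rose beside Spp1. Tgfb2 came from 3 sham UMIs (29.4-fold, 95% counting interval 9.92 to 144, adjusted p = 0.000151), Pdgfb had a log2 change of 2.39 (0.000414) and the chemokine Cxcl16 one of 1.32 (0.0366). Krt19 (43.0-fold, 95% counting interval 11.7 to 358, adjusted p = 0.00893), the progenitor-associated surface protein gene Cd24a (0.82, adjusted p = 0.00491) and the TWEAK receptor gene Tnfrsf12a (2.56, adjusted p = 5.42e-05) completed the 11. The calls of Spp1, Krt8, Sox9, Lcn2 and Tgfb2 were kept in every alternative that tested them, while that of Krt19 was lost without sham mouse 3 and that of Cxcl16 in 8 of 18, where it also turned to -0.017 in Pvalb-positive cells alone. In those cells alone Krt18 had a log2 change of 0.25 (SE 0.32, adjusted p = 0.898), Tnfrsf12a of 0.82 (SE 0.37, adjusted p = 0.433) and Cd24a of 0.50 (SE 0.21, adjusted p = 0.385). Havcr1, the injury molecule KIM-1 of proximal tubules, came to 0 UMIs in the sham group and 9 after DOCA-salt and was not tested.

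Among 9 tested tight junction genes 3 were higher and 0 lower, where 3.95% and 2.3% of all genes tested were. Cldn4 stood at 19.1, 62.6 and 14.7 CPM in the sham mice and 122, 95.3 and 145 CPM in the DOCA-salt mice (log2 change 1.88, SE 0.33, adjusted p = 0.00249), Cldn3 had a log2 change of 1.85 (adjusted p = 0.000480) and Cldn19 one of 2.05 (0.0121). Of the 10 cell cycle genes on the list only 4 were tested, and 3 were higher and 0 lower, beside the same shares. Ccnd1, cyclin D1, stood at 131, 227 and 135 CPM in the sham mice and 394, 463 and 706 CPM in the DOCA-salt mice (log2 change 1.53, SE 0.23, adjusted p = 0.000842). Stmn1 and Tubb5 had log2 changes of 2.88 and 2.17 (adjusted p = 0.00465 and 0.00857). Without sham mouse 3 the calls of Cldn19 and Tubb5 were lost. The proliferation marker Mki67 was too low to be tested, at 0 to 2.73 CPM in sham and 6.00 to 20.1 CPM in DOCA-salt mice. Of 21 genes that cells turn on during dissociation 2 were higher (Atf3 1.00 and Klf6 1.21) and 2 lower (Ier3 -0.95 and Nr4a1 -1.12). Over all genes tested the shares were 3.95% and 2.3%. The summed level of the 21 genes was 6275 to 8968 CPM in sham and 9113 to 12514 CPM in DOCA-salt mice. The part of dissociation in the other changes was not tested.

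The release of ATP by tubular cells was a question of the study. In DCT cells 2 of the 14 genes for ATP channels, purinergic receptors and nucleotide breakdown were tested and 0 passed with edgeR, with DESeq2 or at an unadjusted p under 0.05, P2rx4 (-0.26, adjusted p = 0.572) and Adora2b (-0.57, 0.388). Panx1, which encodes the ATP channel pannexin 1, had 0 UMIs in the 505 sham DCT cells and 17 in the 724 DOCA-salt cells, or 3.52, 1.67 and 1.08 CPM, at least 2.49-fold higher when the sham group is set to 3 counts. These counts are below what the test uses. The 14 genes together summed to 54.6 to 58.1 CPM in sham and 43.9 to 58.4 CPM in DOCA-salt DCT cells. In all other barcodes they summed to 102 to 111 and 133 to 174 CPM.

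By a fixed rule, the 12 largest rises and 12 largest falls were named among genes past the test with at least 20 CPM on average, no overlap of the groups, and a mean in DCT cells at least that of all other barcodes. Of the 606 genes past the test, 214 met the rule (111 higher and 103 lower), and the groups did not overlap in 25.2% of all genes tested (19.5% higher and 5.7% lower). Several of the rises began from next to nothing. Nlgn1 and Samd5 met the low-count filter and the limit of 20 CPM through the DOCA-salt mice alone. Only a rise could be seen for such genes, so their adjusted p is a description. Nlgn1, a synaptic adhesion protein gene, was not seen in sham DCT cells (0 UMIs) and reached 441 UMIs after DOCA-salt, or 70.4, 58.3 and 35.8 CPM, and was at least 64.5-fold higher with 3 counts over the sham group as the floor (adjusted p = 1.12e-05). Samd5 went from 1 UMI to 470 (206-fold, 95% counting interval 36.8 to 8162, adjusted p = 7.72e-07). Anxa1, an anti-inflammatory annexin, stood at 0, 7.09 and 0.700 CPM in the sham mice and 87.9, 109 and 68.9 CPM in the DOCA-salt mice (log2 change 5.23, SE 0.47, adjusted p = 8.44e-06).

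Nrxn3, a presynaptic partner of neuroligins, was the most abundant of the 12 rises. It stood at 19.1, 18.9 and 40.6 CPM in the sham mice and 368, 439 and 593 CPM in the DOCA-salt mice, every DOCA-salt mouse at a multiple of any sham mouse (log2 change 3.93, SE 0.27, adjusted p = 7.72e-07). Its UMIs were seen in 7.36% of sham and 35.2% of DOCA-salt DCT cells, and in 2.74% and 17.1% after thinning. Egfem1 stood at 30.9, 1.18 and 15.4 CPM in the sham mice and 326, 280.2 and 89.0 CPM in the DOCA-salt mice (log2 change 3.64, SE 0.52, adjusted p = 0.000436). Dcdc2a, a doublecortin family member of primary cilia, stood at 22.7, 24.8 and 15.4 CPM in the sham mice and 184, 209.9 and 233 CPM in the DOCA-salt mice (log2 change 3.20, SE 0.20, adjusted p = 3.71e-07). The others shown were Lcn2, Tnfrsf12a and Sox9, given above, the sarcoglycan gene Sgcd (2.18, adjusted p = 0.000117) and Arhgdig (2.02, adjusted p = 0.000278).

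The largest fall was in Pde10a, a phosphodiesterase that breaks down cyclic AMP and cyclic GMP, at 47.3, 59.1 and 95.3 CPM in the sham mice and 11.3, 6.33 and 3.25 CPM in the DOCA-salt mice (log2 change -3.37, SE 0.33, adjusted p = 1.62e-05). Gcgr, the glucagon receptor gene, stood at 66.4, 37.8 and 65.1 CPM in the sham mice and 10.9, 12 and 11.9 CPM in the DOCA-salt mice (log2 change -2.46, SE 0.24, adjusted p = 1.93e-05). Rtl4, a gene derived from a retrotransposon, fell by 2.86 on the log2 scale (adjusted p = 3.50e-06) and the carboxypeptidase gene Cpm, whose symbol is that of the unit by chance, by 2.35 (9.98e-06). Ptgs1, the constitutive cyclooxygenase, stood at 53.7, 46.1 and 52.5 CPM in the sham mice and 25.3, 24.0 and 15.7 CPM in the DOCA-salt mice (log2 change -1.35, SE 0.21, adjusted p = 0.000884). The kinase gene Mapk10 (JNK3) stood at 36.4 to 57.9 CPM in sham and 18.4 to 24.0 CPM in DOCA-salt mice, against a mean of 1.69 CPM in all other barcodes (log2 change -1.27, SE 0.21, adjusted p = 0.00191).

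Egf, already given, also belonged to the 12 falls, as did 4930556J24Rik (-2.01, adjusted p = 0.000281), the small GTPase gene Rasd1 (-1.35, 0.00161), Vps13c, whose product transfers lipids between membranes (-1.31, 0.00512), Mmd (-1.26, 0.00293) and Hhatl (-1.49, 0.00572). Without sham mouse 3 the adjusted p of Hhatl was 0.0685. Of the genes named by this rule, Tnfrsf12a, 4930556J24Rik, Egf, Hhatl, Ptgs1, Vps13c, Mapk10 and Mmd lost their call in at least 1 alternative setting. On GRCm39, Klhl3 lies at chr13:58148042-58261469, minus strand, Egf at chr3:129470410-129549093, minus strand, Nrxn3 at chr12:88689646-90301709, plus strand and Lcn2 at chr2:32274645-32278264, minus strand. UMIs of Nlgn1, Nrxn3 and Mmd are less certain, since Gm37573, Gm48664 and Smim36 overlap them on the same strand.

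**Figure D2:**
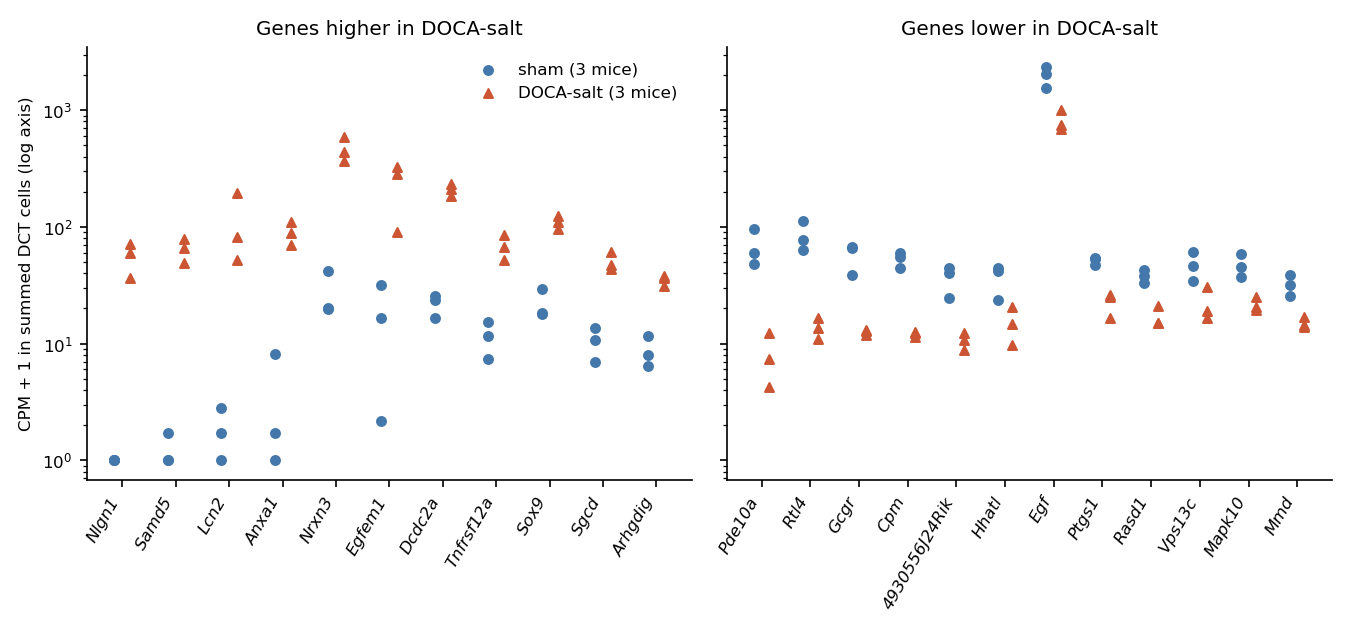
CPM plus 1 in summed DCT cells, on a log axis, for 11 named rises (left) and the 12 named falls (right), 1 point per mouse (circles sham, triangles DOCA-salt). The DOCA-salt points lie above all sham points for each rise and below them for each fall, which the naming rule required.

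The promoters of 6 of these genes are shown because DOCA acts through a steroid receptor: the NCC gene, which chose the cells, Klhl3 and Egf, which were lower in DOCA-salt mice, and the named genes that hold the letters TGTTCT, the half-site of the mineralocorticoid and glucocorticoid receptors. They are the 250 bases before the start listed in RefSeq (GRCm38.p6), or before 1 of the starts where RefSeq lists several (Egf, Nrxn3 and Egfem1), written 5′ to 3′ on the strand of the gene, with TGTTCT and the TATA box TATAAA in capitals. Both strands were searched, so that AGAACA and TTTATA count as matches, and no match in these windows overlaps another.
Slc12a3, chr8:94328958-94329207, plus strand: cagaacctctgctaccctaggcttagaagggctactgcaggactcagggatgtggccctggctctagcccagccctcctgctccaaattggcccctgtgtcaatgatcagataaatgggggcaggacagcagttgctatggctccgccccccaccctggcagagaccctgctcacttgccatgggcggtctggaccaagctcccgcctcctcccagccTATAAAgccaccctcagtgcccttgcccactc
Klhl3, chr13:58113648-58113897, minus strand: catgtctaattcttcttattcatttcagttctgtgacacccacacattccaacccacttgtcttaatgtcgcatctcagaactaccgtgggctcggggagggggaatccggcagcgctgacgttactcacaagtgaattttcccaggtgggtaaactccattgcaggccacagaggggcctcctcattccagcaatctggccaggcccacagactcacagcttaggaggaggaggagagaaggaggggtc
Egf, chr3:129755323-129755572, minus strand: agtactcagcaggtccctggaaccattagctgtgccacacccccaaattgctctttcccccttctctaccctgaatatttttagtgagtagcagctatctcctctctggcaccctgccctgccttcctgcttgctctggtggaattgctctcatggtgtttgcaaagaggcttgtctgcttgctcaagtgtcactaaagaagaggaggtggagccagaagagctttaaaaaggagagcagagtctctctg
Nrxn3, chr12:88794254-88794503, plus strand: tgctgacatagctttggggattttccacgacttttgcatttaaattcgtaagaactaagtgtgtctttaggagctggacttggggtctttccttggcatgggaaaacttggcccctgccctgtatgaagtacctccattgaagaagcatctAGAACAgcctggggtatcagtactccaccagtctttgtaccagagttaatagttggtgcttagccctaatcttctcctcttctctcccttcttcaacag
Egfem1, chr3:29082281-29082530, plus strand: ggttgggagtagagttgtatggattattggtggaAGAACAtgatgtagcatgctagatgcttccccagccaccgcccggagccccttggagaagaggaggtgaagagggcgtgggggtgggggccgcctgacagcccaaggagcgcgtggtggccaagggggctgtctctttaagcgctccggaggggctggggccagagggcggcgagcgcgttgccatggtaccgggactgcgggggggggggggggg
Ptgs1, chr2:36230176-36230425, plus strand: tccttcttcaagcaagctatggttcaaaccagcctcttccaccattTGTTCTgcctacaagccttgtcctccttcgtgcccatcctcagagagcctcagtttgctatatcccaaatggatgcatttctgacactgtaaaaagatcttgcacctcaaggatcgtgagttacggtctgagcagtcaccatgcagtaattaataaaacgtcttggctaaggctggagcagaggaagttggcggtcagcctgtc
TGTTCT was held by 16.1% of the 32851 promoters in the table, by 2 of the 9 named rises with an entry in the table (22.2%, Nrxn3 and Egfem1) and by 1 of the 8 named falls with an entry (12.5%, Ptgs1). TATAAA was held by 12.4% of all promoters and by 1 gene of each group. A match is a description of letters, and Klhl3 and Egf hold neither motif in this window.

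Markers of other cell types were checked as whole lists, since droplets carry free RNA. The 12 proximal tubule markers summed to 1674 to 5520 CPM in sham and 2018 to 2710 CPM in DOCA-salt DCT cells, and 3 of the 8 not used by the rule were lower, Cyp4b1 and Acsm2 among them. The 10 immune markers summed to 10.6 to 38.2 and 60.2 to 228 CPM, with Ptprc (which the rule set to 0) and Ms4a1 at 0 and 3 of 4 tested genes higher (Lyz2, C1qa and H2-Aa). The 8 endothelial markers summed to 10.0 to 18.2 and 24.6 to 44 CPM and the 8 stromal markers to 5.46 to 14.0 and 35.2 to 70.0 CPM, with Mgp and Emcn higher and Pecam1 and Col1a1 at 0 by the rule. The 7 intercalated cell markers summed to 16.5 to 225 and 111 to 190 CPM with 0 of 6 tested past the test of edgeR or DESeq2 and 3 at an unadjusted p under 0.05, and of the 7 tested connecting tubule and principal cell markers 1, Calb1, was lower. The 6 thick ascending limb markers summed to 2269 to 3273 CPM in sham and 2301 to 4450 CPM in DOCA-salt mice, and of 4 tested 1, Ptger3, was higher. The part of RNA from other cells in the DCT differences was not tested.

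The second question was how Pvalb-positive and Pvalb-negative DCT cells differ. The Pvalb-positive share was 47.5, 62.9 and 45.2% in the sham mice and 50.4, 46.8 and 46.2% in the DOCA-salt mice, and after thinning 26.3, 40.4 and 24.1% against 29.4, 23.4 and 24.4%. Sham mouse 2 stood highest, and the groups overlapped (thinned means 30.3 ± 8.86% and 25.7 ± 3.22%, SD, n = 3 each, two-sided exact permutation p = 0.6, and p = 0.8 unthinned). A Pvalb UMI was found in 1.76% of sham and 1.55% of DOCA-salt proximal tubule cells. Since a cell without a Pvalb UMI can be a shallow cell of the positive kind, the classes are ranges of detection. The median Pvalb-negative cell held 2557 to 5914 UMIs in sham and 7828 to 12646 in DOCA-salt mice, and the median Pvalb-positive cell 6498 to 9364.5 and 7781.5 to 10676.

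Both classes were summed per mouse and compared within the 6 mice. Of 8972 genes tested, 622 were higher in Pvalb-positive cells (6.93%) and 594 lower (6.62%), 13.6% in all, and with libraries scaled by totals alone the split was 365 to 1196 with a median log2 difference of -0.17. The median mitochondrial share was higher in Pvalb-positive cells, at 37.3 to 38.5% in sham and 32.2 to 34.3% in DOCA-salt mice, than in Pvalb-negative cells, at 29.8 to 35.1% and 21.3 to 27.3%. Its part in the differences was not tested. With a limit of 20% mitochondrial UMIs 111 genes were higher and 126 lower. Of 20 mitochondrial energy genes 16 were higher and 0 lower (median 0.51, against -0.01 over all genes), for example Cox4i1 (log2 difference 0.61, SE 0.09, adjusted p = 0.000112). Of 10 basolateral transport genes 5 were higher and 0 lower, with Fxyd2, a subunit of the sodium pump, at 0.87 (adjusted p = 7.61e-05) and Kcnj10 at 0.57 (0.00122). Of 13 NCC regulators 2 were higher, Wnk4 (0.53, adjusted p = 0.00226) and Ppp1r1a (1.21, 6.05e-07), and 2 lower, Sgk1 (-0.86, 0.0199) and Nedd4l, the gene of a ubiquitin ligase (-0.53, 0.00549). Klhl3 did not pass the test (0.30, 0.225).

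Of 14 tested magnesium and calcium genes, 4 were higher in Pvalb-positive cells, the magnesium genes Trpm6 (0.56, adjusted p = 0.0170), Cnnm2 (0.49, 0.0131) and Slc41a3 (1.87, 0.000117) and Egf. Lower were 6, of which Trpv5, Calb1, Slc8a1, S100g and Atp2b4 carry or bind calcium, beside the Egf receptor gene Egfr. With cells thinned to 1000 UMIs the difference of Cnnm2 turned to -0.040. Trpv5 ranged over 0 to 6.18 CPM in the Pvalb-positive sums and 76.9 to 137 CPM in the Pvalb-negative sums of the 6 mice (log2 difference -5.59, SE 0.32, adjusted p = 4.74e-10), and S100g, calbindin-D9k, over 296 to 2450.3 CPM in the Pvalb-positive sums and 5113 to 16672 CPM in the Pvalb-negative sums of the 6 mice (log2 difference -3.29, SE 0.26, adjusted p = 5.37e-08). Of 17 genes of mineralocorticoid action 3 were higher and 6 lower, the lower ones being the receptor gene Nr3c2 (-0.47), Hsd11b2, the enzyme that shields the receptor from glucocorticoids (-3.56), the sodium channel subunits Scnn1b (-2.03) and Scnn1g (-3.35), Sgk1 (-0.86) and Klk1 (-2.15). With a limit of 20% mitochondrial UMIs the difference of Nr3c2 turned to 0.13.

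By the naming rule, with the same direction in 6 of 6 mice, the largest differences toward Pvalb-positive cells were in Wfdc15b (2.49), Ctxnd1 (2.35), Umod (2.29), Gm16010 (1.94), Gpx6 (1.75), Egf (1.70), Sult1a1 (1.67) and Lrrc52 (1.62). Umod, the urinary protein uromodulin of the thick ascending limb and early DCT, ranged over 3032 to 7904 CPM in the Pvalb-positive sums and 584 to 1435 CPM in the Pvalb-negative sums of the 6 mice. Toward Pvalb-negative cells they were in Egfem1 (-5.70), Trpv5, Gm56555 (-3.66), Scnn1g, S100g, the urate transporter gene Slc2a9 (-2.87), Arl15 (-2.59) and Krt18 (-2.22). Egfem1 ranged over 0 to 19.1 CPM in the Pvalb-positive sums and 3.50 to 555 CPM in the Pvalb-negative sums of the 6 mice. Marker lists moved with the classes: 6 of 7 connecting tubule and principal cell markers and 6 of 7 intercalated cell markers were lower in Pvalb-positive cells, and the intercalated list summed to 17.5 to 504 CPM over the 6 mice in Pvalb-negative and to 16.1 to 116 CPM in Pvalb-positive cells. The thick ascending limb list moved the other way, at 3094 to 7983 CPM in Pvalb-positive and 654 to 1531 CPM in Pvalb-negative cells. Of its 4 tested genes 1, Umod, was higher in Pvalb-positive cells. Of 17 tested injury genes 12 were lower in Pvalb-positive cells and 0 higher. Whether droplets of either class held a second cell was not tested. Depth moves with the classes in sham mice, and with cells thinned to 1000 UMIs 219 genes were higher and 213 were lower. The classes were those assigned before thinning, so that thinning takes no shallow cell out of the Pvalb-negative class.

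**Figure D3:**
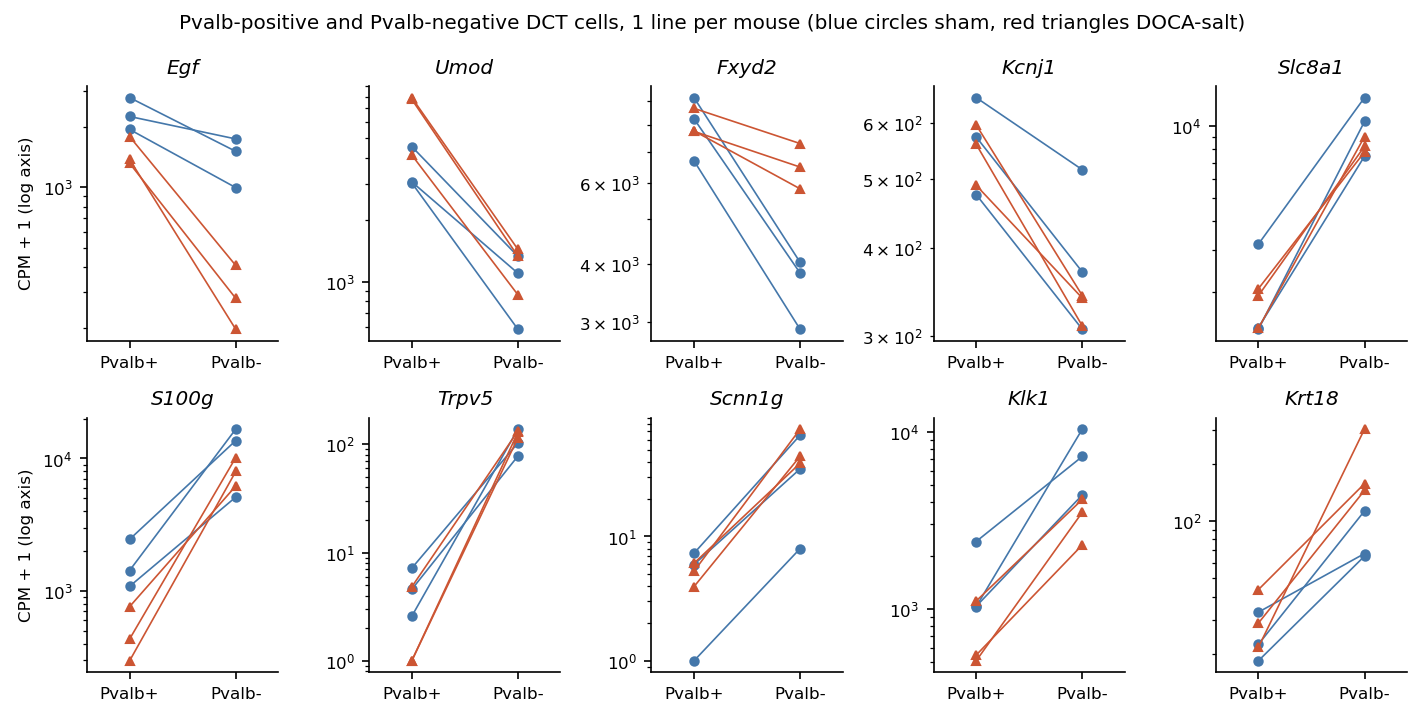
CPM plus 1 on a log axis in the summed Pvalb-positive and Pvalb-negative DCT cells, 1 line per mouse (circles sham, triangles DOCA-salt), for 10 genes. In 6 of 6 mice Egf, Umod, Fxyd2 and Kcnj1 are higher in Pvalb-positive cells, and Slc8a1, S100g, Trpv5, Scnn1g, Klk1 and Krt18 in Pvalb-negative cells.

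Whether DOCA-salt changed the classes differently was tested as an interaction. Of 8972 genes 41 (0.457%) had a higher log2 change in Pvalb-positive than in Pvalb-negative cells and 27 (0.301%) a lower one, 0.758% in all, and scaling by totals alone gave 22 and 67, with a median of -0.12. The list of NCC regulators had 1 higher change (Klhl3) and 0 lower ones, that of magnesium and calcium handling 4 higher (Trpm6, Cnnm2, Egf and Calb1) and 0 lower, and that of basolateral transport 0 higher and 1 lower (Fxyd2). Klhl3 stood in Pvalb-negative cells at 898, 808 and 952 CPM in sham and 301, 325 and 333 CPM in DOCA-salt mice, and in Pvalb-positive cells at 755, 637 and 746 CPM in sham and 492, 515 and 472 CPM in DOCA-salt mice. Fitted within each class, its change was -1.66 (SE 0.18, adjusted p = 9.59e-05) in Pvalb-negative and -0.60 (SE 0.17, adjusted p = 0.0967) in Pvalb-positive cells, and the difference of the changes was 1.06 (adjusted p = 0.00125).

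Egf stood at 994, 1507 and 1738 CPM in sham and 195, 279 and 407 CPM in DOCA-salt mice among Pvalb-negative cells, and at 1939, 2793 and 2249 CPM in sham and 1374, 1315 and 1786 CPM in DOCA-salt mice among Pvalb-positive ones. Its changes were -2.45 (SE 0.27, adjusted p = 9.59e-05) and -0.70 (SE 0.18, adjusted p = 0.0608), and the difference was 1.77 (adjusted p = 0.000102). Trpm6, which did not pass in all DCT cells, changed by -0.92 (SE 0.23, adjusted p = 0.0214) in Pvalb-negative and by 0.09 (SE 0.17, adjusted p = 0.941) in Pvalb-positive cells, with a difference of 1.01 (0.00522). Calb1 (1.03), the magnesium gene Cnnm2 (0.73), the ubiquitin ligase gene Pdzrn3 (2.10) and Uroc1, an enzyme of histidine breakdown (1.37), differed in the same direction.

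In the other direction, Lgals3, galectin-3, changed by 1.99 (SE 0.21, adjusted p = 7.64e-05) in Pvalb-negative and by 0.50 (SE 0.20, adjusted p = 0.341) in Pvalb-positive cells (difference -1.52, adjusted p = 0.00564). The lysosomal protease gene Ctsd (-1.08), Clu, the chaperone clusterin (-1.13), the nucleolar gene Npm1 (-1.14), Ly6a (-1.01) and Fxyd2 (-0.75) had lower changes in Pvalb-positive cells too. Some rises were large in both classes: Nrxn3 changed by 3.86 (SE 0.34, adjusted p = 2.90e-05) and 3.70 (SE 0.29, adjusted p = 2.01e-07), Dcdc2a by 3.18 (SE 0.30, adjusted p = 3.43e-05) and 2.97 (SE 0.25, adjusted p = 6.05e-07), and Sox9 by 2.62 (SE 0.26, adjusted p = 5.76e-05) and 2.03 (SE 0.24, adjusted p = 6.28e-05), each in Pvalb-negative and then Pvalb-positive cells. Of the 606 genes past the test in all DCT cells, 86 passed in Pvalb-positive cells alone, where 90 of 7444 genes did, and 421 in Pvalb-negative cells alone, where 686 of 8151 did, and these counts are no test of a difference between the classes. Without 1 mouse the interaction gave 11 to 84 higher and 7 to 79 lower changes. Pvalb itself was lower, sham Pvalb-negative cells were shallower, and the median mitochondrial share of Pvalb-negative cells was 29.8 to 35.1% in sham and 21.3 to 27.3% in DOCA-salt mice, beside 37.3 to 38.5% and 32.2 to 34.3% in Pvalb-positive cells. The part of depth and RNA quality in the interaction was not tested, and a change within a class and a move of cells between classes cannot be told apart.

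**Figure D4:**
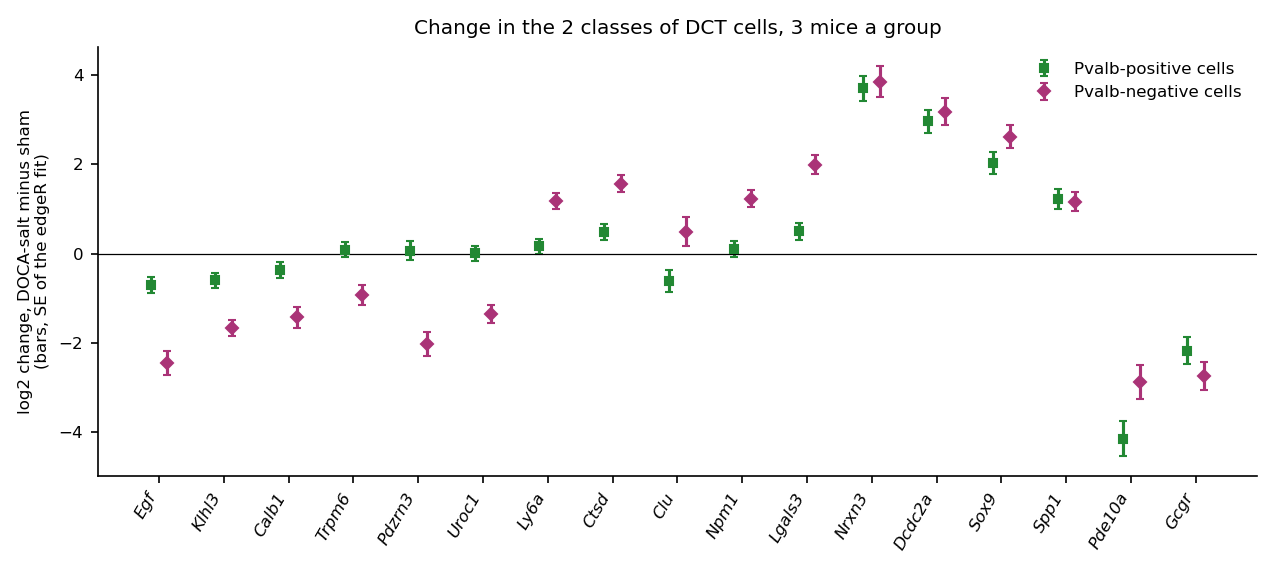
Log2 change of DOCA-salt against sham in Pvalb-negative and in Pvalb-positive DCT cells for 17 genes, each fitted within its class, with bars of 1 SE. Egf, Klhl3, Calb1 and Trpm6 lie lower in Pvalb-negative cells, while Nrxn3 (3.86 and 3.70) and Dcdc2a (3.18 and 2.97) lie far above 0 in both classes.

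The DCT changes were set against those of the thick ascending limb, the segment just upstream (3585 cells of the same mice), by the interaction of cell type and treatment. Of 12309 genes, 352 (2.86%) had a higher log2 change in DCT cells and 180 (1.46%) a lower one, 4.32% in all (550 and 101 with scaling by totals alone, median 0.13). The counts were 142 and 53 with DESeq2, 217 and 134 without sham mouse 1, 214 and 102 without sham mouse 3, and 263 and 114 without DOCA-salt mouse 3. Nrxn3 stood in thick ascending limb cells at 264, 286 and 300.1 CPM in sham and 349.8, 270.2 and 586 CPM in DOCA-salt mice, so that DCT cells started far lower and reached a like level in DOCA-salt mice. The change was higher in DCT cells by 3.52 (SE 0.21, adjusted p = 2.29e-11). Tmsb4x, an actin-binding peptide gene, stood at 107, 141 and 106 CPM in the sham mice and 1129, 912 and 915 CPM in the DOCA-salt mice in DCT cells, without overlap, while thick ascending limb cells held 336, 269 and 196 CPM in sham and 471, 289 and 302 CPM in DOCA-salt mice (difference 2.55, adjusted p = 2.29e-11). All other barcodes held 1961 CPM of Tmsb4x on average. The changes of Anxa1 (4.65) and Sostdc1, an inhibitor of BMP and Wnt signalling (1.45), were higher in DCT cells too. Gm40392 overlaps Sostdc1 on the same strand.

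Lower in DCT cells were the changes of Clu (-2.01, adjusted p = 7.09e-11), Rtl4 (-2.18), Gcgr (-1.89), the clock gene Arntl (-1.93) and Cpm (-1.80). Clu stood at 1045, 478 and 1253 CPM in the sham mice and 1228, 1717 and 1064 CPM in the DOCA-salt mice in DCT cells, with overlap, and at 57.5, 33.0 and 81.4 CPM in sham and 327, 396 and 211 CPM in DOCA-salt mice in thick ascending limb cells. Of the 13 NCC regulators, Klhl3 (-0.45, 0.0411), Stk39 (-0.42, 0.0293) and Sgk1 (-1.47, 0.000966) had lower changes in DCT cells and 0 higher ones. Among magnesium and calcium genes Trpm6 (-1.44, 0.000889) and Egf (-0.88, 0.000201) had lower changes in DCT cells and S100g (1.11, 0.00187) a higher one. Trpm6 itself did not pass the test in either cell type. It stood in thick ascending limb cells at 4.00, 3.05 and 3.46 CPM in sham and 4.41, 10.8 and 6.97 CPM in DOCA-salt mice (log2 change 1.02, adjusted p = 0.216), with a UMI in 2.34% and 3.87% of cells. In thick ascending limb cells, where DOCA-salt mice had 0.848% of genes up and 0.622% down (1.47% in all), Klhl3 (log2 change -0.68, adjusted p = 0.0310) and Wnk1 (-0.99, 0.0131) were lower too. The changes of Wnk1 in the 2 cell types did not differ past the test (0.36, 0.0952). Of 25 tested injury genes 9 had higher changes in DCT cells, the keratins Krt7, Krt8, Krt18 and Krt19 among them, and 1, Clu, a lower one. Thick ascending limb cells themselves had 8 of 24 injury genes higher in DOCA-salt mice and 0 lower. Of the 21 dissociation genes 6 had higher changes in DCT cells (Atf3, Egr1, Ier2, Btg2, Klf6 and Klf2) and 0 lower ones. The sign for Klhl3 turned to 0.46 with a limit of 20% mitochondrial UMIs, where 11 genes had a higher and 3 a lower change in DCT cells.

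Against Aqp2 cells, the mineralocorticoid-responsive principal-type cells further downstream (1339 cells, where DOCA-salt mice had 5.39% of genes higher and 3.54% lower, 8.92% in all), 344 of 11719 genes (2.94%) had a higher and 209 (1.78%) a lower log2 change in DCT cells, 4.72% in all (689 and 134 with scaling by totals alone, median 0.20). The Aqp2 cells were 942 sham and 397 DOCA-salt cells. The median Aqp2 cell held 9046 to 11213 UMIs in a sham mouse and 11349.5 to 17103 in a DOCA-salt mouse. Its median mitochondrial share was 12.1 to 16.3% and 10.9 to 11.8%, beside 34.2 to 36.8% and 27.7 to 30.4% in DCT cells. The part of depth and RNA quality in this interaction was not tested. Of 17 tested genes of mineralocorticoid action 4 had higher changes in DCT cells, Scnn1b (0.98), Scnn1g (1.44), Ndrg2 (0.79) and Klk1 (1.86). Lower changes were seen for 4, Sgk1, Fkbp5, Tsc22d3 (-0.87) and Zbtb16 (-1.98). In Aqp2 cells themselves 2 of 17 were higher in DOCA-salt mice, Sgk1 and Fkbp5. There 6 were lower, Scnn1g, Ndrg2, Klk1, Nr3c2 and Klf9 among them (median -0.32). In DCT cells 0 of 16 were higher. Fkbp5 moved in opposite directions: it stood in Aqp2 cells at 21.5, 16.6 and 13.8 CPM in sham and 40.9, 31.7 and 38.1 CPM in DOCA-salt mice, where its log2 change was 1.12 (adjusted p = 0.00543), against -0.91 in DCT cells, and the difference was -2.03 (SE 0.22, adjusted p = 1.02e-05). Sgk1 stood at 163, 110.3 and 92.8 CPM in sham and 235, 185 and 179.8 CPM in DOCA-salt mice in Aqp2 cells (log2 change 0.74, adjusted p = 0.0379), and the difference of its changes was -1.53 (adjusted p = 0.000627). Pde10a was 21.5, 17.7 and 15.2 CPM in sham and 46.8, 72.0 and 121 CPM in DOCA-salt mice in Aqp2 cells, and its change was lower in DCT cells (-5.37, adjusted p = 2.58e-07).

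Lower changes in DCT cells were also seen for the guanine exchange factor gene Arhgef3 (-1.60), the heme exporter gene Flvcr1 (-2.27), Mapk10 (-3.62) and Trpm6 (-1.82, adjusted p = 7.27e-05). Higher ones were seen for the receptor phosphatase gene Ptprd (1.83), the guidance factor gene Slit2 (2.21), Tmsb4x (2.02), the glypican gene Gpc3 (4.43) and the receptor kinase gene Erbb4 (1.53). Trpm6 itself had a log2 change of 1.41 in Aqp2 cells (adjusted p = 0.0186). Ptprd and Slit2 had log2 changes of -0.07 and -0.34 in DCT cells, neither past the test, against -1.90 (adjusted p = 7.81e-05) and -2.52 (0.000143) in Aqp2 cells. Without sham mouse 1 the counts were 220 higher and 132 lower, and without sham mouse 3 they were 178 and 103. On the same strand Slit2, Erbb4, Stk39 and Nr4a1 overlap Gm20475, Gm16076, Gm57474 and Gm56721. Injury genes rose in Aqp2 cells as well, 12 of 21 tested with 0 lower (Krt8, Krt18, Krt19, Sox9, Tgfb2, Pdgfb and Cxcl16 among them). Of 23 tested, 2 had a higher change in DCT cells, Lcn2 and Tnfrsf12a, and 0 a lower one. Lcn2 began from next to nothing in sham DCT cells, while Aqp2 cells already held it in sham mice.

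**Figure D5:**
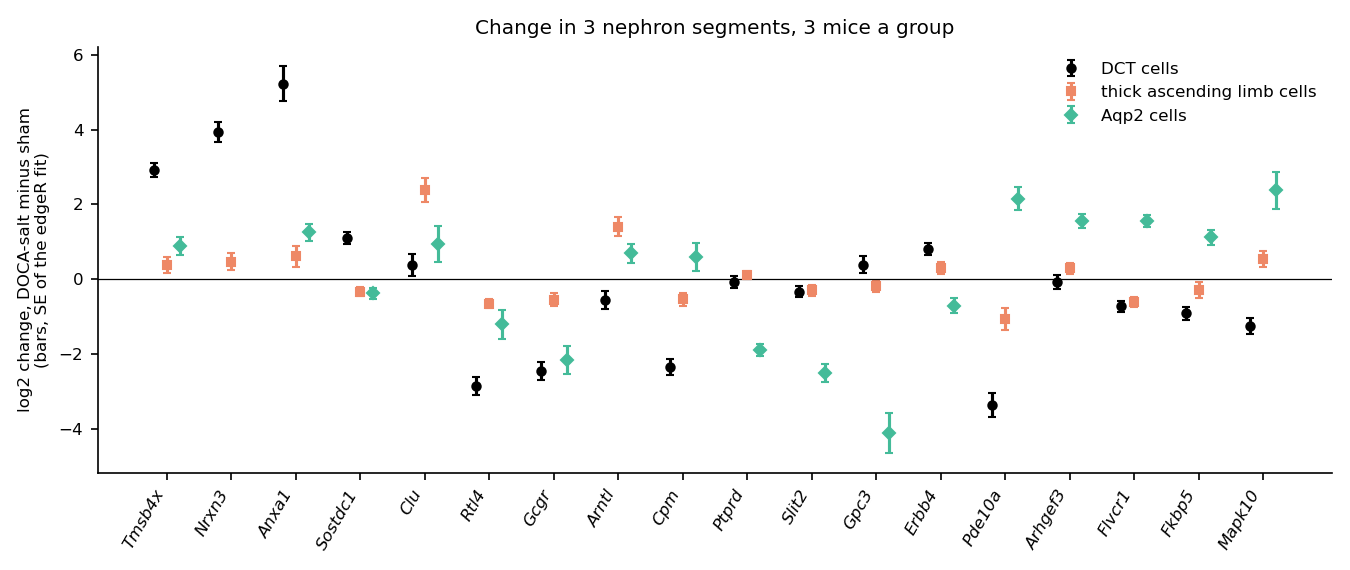
Log2 change of DOCA-salt against sham in DCT, thick ascending limb and Aqp2 cells for 18 genes named by the interaction tests, with bars of 1 SE. Tmsb4x, Nrxn3 and Anxa1 lie highest in DCT cells, and Pde10a, Fkbp5 and Mapk10 lie below 0 in DCT cells and above 0 in Aqp2 cells.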

How the data were processed

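Whole-kidney cell suspensions of 3 sham and 3 DOCA-salt mice were profiled with the 10x Genomics 3′ v3.1 chemistry, 1 library per mouse. The deposited values are raw UMI counts per gene and barcode, which the authors made with Cell Ranger against GRCm39 and did not normalise. The processing notes give Cell Ranger 9.0.0, Seurat 4.0.0 and R 4.0.3, the file headers give Cell Ranger 8.0.1, and the annotation release is not given in the sources used here. The authors also filtered cells and marked doublets, but their cell annotation was not used here. The deposited barcodes were filtered anew by the rule in the report, and no doublet caller was applied except as an alternative. The members and the 18 gene lists (239 genes, all found among 33696) were chosen with earlier results of these data known.

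UMIs were summed per mouse over DCT cells, over their Pvalb-positive and Pvalb-negative classes, and over thick ascending limb cells (at least 4 UMIs of Slc12a1, at most 1 of Slc12a3) and Aqp2 cells (at least 4 UMIs of Aqp2, at most 1 of Slc12a3 and of Slc12a1), with the other limits kept. Mice with under 10 cells in a sum were left out, which happened only at a limit of 20% mitochondrial UMIs. The sums were tested with the quasi-likelihood test of edgeR 4.0.16 (R 4.3.3, limma 3.58.1, TMM scaling, filterByExpr, Benjamini-Hochberg over all genes tested, threshold 0.05). The mouse was a block where 2 kinds of cells of the same mice were compared, and shares were compared by exact permutation tests over mice. Cells count as no replicates. Intervals cover counting error only, and PCR copies were removed by the UMIs.

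Genes of the rule and mitochondrial genes are described without a test. Named genes were the listed ones, and by size the 12 rises and 12 falls, the 8 differences each way between classes and the 5 smallest p each way of every interaction, at a mean of at least 20 CPM. Alternatives were DESeq2 1.42.0, other scalings, no low-count filter, 1 mouse left out at a time, the replicate number as a block, other limits of the rule, removal of the highest Scrublet scores (scanpy 1.11.5, 0.8% per 1000 barcodes) and thinning to 1000 UMIs per cell. Thinned sums kept the Pvalb classes assigned before thinning. Gene symbols shared by more than 1 identifier (26) were kept apart by identifier. Some genes that met the rules, or belong to the lists, are not reported here. Promoters came from the RefSeq table of GRCm38.p6, apart from the GRCm39 coordinates of the genes. Tested on data simulated for 9927 genes, the DOCA-salt comparison recovered 34% of genes changed 2-fold and 92% of those changed 4-fold, with 4 false calls of 130. The comparison of classes recovered 60% and 93%, and the interaction with thick ascending limb cells 6% and 70%. The simulated counts had the same fixed spread for every gene and no mouse effect. These figures therefore describe that setting and not the spread of these mice. Python 3.11.15 with numpy 2.4.6, scipy 1.17.1 and pandas 2.3.3 was used for the sums.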

Additional observations from a re-analysis of the deposited data

Results flagged for a closer look

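The genes below drew attention because their log2 changes differed between 2 kinds of cells past the test of the interaction. The value is the difference of the log2 changes. Between the classes of DCT cells, the log2 change was higher in Pvalb-positive than in Pvalb-negative cells for Egf (1.77), Klhl3 (1.06), Calb1 (1.03), Pdzrn3 (2.10) and Uroc1 (1.37), and lower for Ly6a (-1.01), Ctsd (-1.08), Clu (-1.13), Npm1 (-1.14) and Lgals3 (-1.52), with adjusted p from 0.000102 to 0.00564 by the quasi-likelihood test of edgeR. Against thick ascending limb cells, the log2 change of DCT cells was higher for Tmsb4x (2.55), Nrxn3 (3.52), Anxa1 (4.65) and Sostdc1 (1.45), and lower for Clu (-2.01), Rtl4 (-2.18), Gcgr (-1.89), Arntl (-1.93) and Cpm (-1.80), with adjusted p from 2.29e-11 to 1.23e-05 by the quasi-likelihood test of edgeR. Against Aqp2 cells, it was higher for Ptprd (1.83), Slit2 (2.21), Tmsb4x (2.02), Gpc3 (4.43) and Erbb4 (1.53), and lower for Pde10a (-5.37), Arhgef3 (-1.60), Flvcr1 (-2.27), Fkbp5 (-2.03) and Mapk10 (-3.62), with adjusted p from 2.58e-07 to 1.83e-05 by the quasi-likelihood test of edgeR. The median mitochondrial share of DCT cells was 34.2 to 36.8% in sham and 27.7 to 30.4% in DOCA-salt mice. The median Pvalb-negative cell held 2557 to 5914 UMIs in sham and 7828 to 12646 in DOCA-salt mice. The part of depth and RNA quality in the values was not tested. A change within a Pvalb class and a move of cells between classes cannot be told apart. With 3 mice a group, no mouse was tested for standing apart from its group.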

How the results depend on the processing

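Among single genes, 3636 of the values for DOCA-salt against sham were labelled unchanged under the alternatives, while 243 lost the call, 124 gained one and 3 were labelled as turned. Unchanged values include sign changes of genes not past the test, such as Trpm6 in Pvalb-positive cells alone. Of the 606 genes past the test, 462 were tested in Pvalb-positive cells alone and 453 kept their sign. Higher and lower genes in DCT cells were 612 and 125 with library size only, 686 and 345 with no filter on low counts, 135 and 98 with at most 20% mitochondrial UMIs, 57 and 36 with cells thinned to 1000 UMIs and 54 and 36 with Pvalb-positive cells only. With Slc12a3 of at least 2 UMIs 241 were higher, and with no limit on proximal tubule genes 433 were lower. Leaving out 1 mouse gave 210 to 594 higher and 89 to 449 lower genes, with fewest without sham mouse 3, most without sham mouse 2, and 111 and 109 lower genes without DOCA-salt mice 1 and 3.

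Same-numbered sham and DOCA-salt mice had correlations of deviations of -0.05, -0.29 and -0.08, and pairs of unlike number ran from -0.15 to 0.19. Deviations sum to 0 within each group, so these values cannot tell whether mice were paired or processed together. With the replicate number as a block 253 genes were higher and 105 lower, of which 333 were called without it too.

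For Pvalb-positive against Pvalb-negative cells the counts were 336 and 292 with DESeq2, 365 and 1196 with library size only, 219 and 213 with thinning, 111 and 126 at 20% mitochondrial UMIs (4 mice), and 403 to 674 and 409 to 658 when a mouse was left out (403 higher without DOCA-salt mouse 3). For the interaction of class and DOCA-salt they were 22 and 67 with library size only, 89 and 106 with no filter, 115 and 81 with at least 3 Pvalb UMIs for the positive class, 7 and 13 with thinning, and 11 to 84 and 7 to 79 without 1 mouse (16 and 9, 84 and 79, and 22 and 7 without sham mice 1, 2 and 3, and 18 and 20, 11 and 7, and 24 and 15 without DOCA-salt mice 1, 2 and 3). It was not run at 20% mitochondrial UMIs, where 1 sham mouse had at least 10 cells in both classes. Against thick ascending limb cells they were 142 and 53 with DESeq2, 550 and 101 with library size only, 62 and 26 with thinning, 11 and 3 at 20% mitochondrial UMIs, and 214 to 311 and 102 to 181 without 1 mouse. Against Aqp2 cells they were 130 and 78 with DESeq2, 689 and 134 with library size only, 559 higher with no filter, 46 and 16 with thinning, 124 and 69 at 20% mitochondrial UMIs, and 178 to 305 and 103 to 178 without 1 mouse.

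By these labels the sign turned for 19 values, which leaves out sign changes like that of Trpm6, and the cause was not tested. In Pvalb-positive cells only, Pdzrn3 (0.065), Uroc1 (0.0059) and Cxcl16 (-0.017) turned. At 20% mitochondrial UMIs the class difference turned for Nrxn3 (0.18), Nr3c2 (0.13), Fos (0.92), Fosb (0.60), Junb (1.12), Zfp36 (0.96) and Klf6 (0.25), the comparison with the thick ascending limb for Mapk10 (0.086) and Klhl3 (0.46), and that with Aqp2 cells for Calb1 (0.033) and Ctsd (1.52). With thinning the class difference turned for Pdzrn3 (-0.018), Cnnm2 (-0.040) and Sall3 (-0.088), and the interactions for Cldn19 (-0.15, thick ascending limb) and Slc26a4 (-0.25, Aqp2 cells). The difference in the share of Pvalb-positive DCT cells was 3.43 percentage points at 20% mitochondrial UMIs and -7.62 to 0.556 without 1 mouse, and that in the share of DCT cells 0.522 to 1.18 percentage points. Depth limits what was tested: after thinning, 2597 genes were left for the interaction of class and DOCA-salt.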
